A study of Arabidopsis thaliana with 14 samples.

Results

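The H3K36me3 regions of 10 genes were described: CLV1 (AT1G75820), CLV2 (AT1G65380), CLV3 (AT2G27250), BAM1 (AT5G65700), BAM2 (AT3G49670), CRN (AT5G13290), RPK2 (AT3G02130), ER (AT2G26330), ERL1 (AT5G62230) and ERL2 (AT5G07180). They were taken by name, as the CLAVATA receptors with the ligand gene CLV3 and the ERECTA family, from the 27444 protein-coding genes on the nuclear chromosomes. Every region that overlapped their annotated gene bodies was kept, which gave 31 of 52588 regions at 25 °C and 30 of 50290 regions at 16 °C. All samples were Arabidopsis thaliana Col-0 tissue enriched for the shoot apical meristem (SAM), with leaves at early stages, from plants kept for 5 weeks at 16 °C with 8 h of light and 16 h of dark per day. The 25 °C samples came from plants collected 1 day after transfer to 25 °C, and the 16 °C samples from plants still growing at 16 °C. Chromatin immunoprecipitation with sequencing (ChIP-seq) used an H3K36me3 antibody for 4 samples at each temperature and an H3 antibody for 3 at each, every sample being made from 0.5 g of plant material. For 1 of the 25 °C samples, replicate A, the antibody field names H3 while the title names H3K36me3, which could not be checked in pooled values.

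The deposited values are 1 pooled list of regions per temperature, so depth per sample is unknown, no difference has a replicate check and no test was possible. A region has a height, the highest read coverage within it, and a p-value of that height. Genes overlapped by a region over 1 bp or more are called marked, and cover means the percent of a gene body that lies inside regions. Changes are differences in percentage points, 25 °C minus 16 °C. The 25 °C list covered more of the nuclear genome than the 16 °C list (16000080 and 11977030 bp). Organelle regions took an estimated 28.0% of all signal at 25 °C and 36.9% at 16 °C, taken as their summed coverage over that of the whole genome at the mean coverage of 107.2 that the weakest region implies. The lowest nuclear height was 179.3 at 25 °C and 179.4 at 16 °C. To check the tissue label, 10 shoot meristem markers were looked up, of which 3 held regions at 25 °C and 8 did at 16 °C, and 5 young leaf genes, of which 3 held regions at 25 °C and 4 did at 16 °C. STM, the defining meristem marker, had a single region over 2.01% of the gene, at 16 °C alone. H3K36me3 does not measure the RNA of these markers, so they give only a weak check of the tissue label.

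H3K36me3 is deposited on histone H3 during transcription and lies mostly over the bodies of transcribed genes, in plants toward their 5′ part. In the SAM, the small secreted peptide CLV3 is perceived by leucine-rich repeat receptors (CLV1 and its relatives, and CLV2 with CRN), which restrict the expression of WUS, a transcription factor that maintains stem cells. The ERECTA family consists of leucine-rich repeat receptor kinases that perceive secreted EPF and EPFL peptides and act in stem growth, stomatal patterning and SAM size. In bulk tissue, fewer cells carrying a mark and less of the mark per cell cannot be told apart.

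The H3K36me3 regions differed in their borders and breaks between the temperatures in genes that were marked at both. The stretches below were chosen after their values were seen, as the clearest examples. Of the 21 gaps between neighbouring regions of a gene at 16 °C, 6 lay wholly inside 25 °C regions. Of the 22 such gaps at 25 °C, 4 lay wholly inside 16 °C regions. A gap means only that no region was called there, and the read coverage within it is not known. The gaps printed for BAM1 and RPK2 are 60 bp long, shorter than the 150 bp to which reads were extended. In CLV2, BAM1 and RPK2 the capitals mark a gap between neighbouring regions at 16 °C that 1 unbroken region filled at 25 °C. In BAM2 they mark a gap at 25 °C that a 16 °C region filled, and in CLV1 the tallest 25 °C region, where no region lay at 16 °C. For these 5 stretches 25 bases on each side are in lower case and all bases are coding sequence. In ER the stretch is the tallest 16 °C region, with exon bases in capitals and intron bases in lower case. Coordinates are TAIR10, and each sequence runs 5′ to 3′ along the gene's own strand.
CLV2, chr1:24287336-24287545, plus strand: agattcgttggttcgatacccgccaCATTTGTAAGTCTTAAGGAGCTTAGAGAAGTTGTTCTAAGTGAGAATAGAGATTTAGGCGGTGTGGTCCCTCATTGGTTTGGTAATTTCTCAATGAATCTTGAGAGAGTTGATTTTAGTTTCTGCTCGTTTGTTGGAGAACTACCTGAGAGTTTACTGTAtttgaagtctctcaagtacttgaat
BAM1, chr5:26282356-26282465, plus strand: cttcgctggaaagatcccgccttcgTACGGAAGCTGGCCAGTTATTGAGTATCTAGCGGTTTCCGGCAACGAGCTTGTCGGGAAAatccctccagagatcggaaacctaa
RPK2, chr3:381496-381605, plus strand: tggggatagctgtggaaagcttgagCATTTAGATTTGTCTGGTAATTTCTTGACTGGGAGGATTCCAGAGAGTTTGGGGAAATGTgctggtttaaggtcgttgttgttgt
BAM2, chr3:18418556-18418775, plus strand: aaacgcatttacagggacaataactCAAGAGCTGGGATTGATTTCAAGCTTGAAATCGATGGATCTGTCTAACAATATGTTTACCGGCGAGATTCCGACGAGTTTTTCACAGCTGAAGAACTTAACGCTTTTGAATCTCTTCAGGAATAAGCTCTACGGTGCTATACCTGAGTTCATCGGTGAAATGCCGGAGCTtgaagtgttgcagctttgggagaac
CLV1, chr1:28465786-28465985, minus strand: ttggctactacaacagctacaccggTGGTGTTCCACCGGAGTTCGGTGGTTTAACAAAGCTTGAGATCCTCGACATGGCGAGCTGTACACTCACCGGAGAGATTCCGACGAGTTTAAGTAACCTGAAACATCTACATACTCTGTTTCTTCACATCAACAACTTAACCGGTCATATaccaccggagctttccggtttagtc
ER, chr2:11212661-11212960, minus strand: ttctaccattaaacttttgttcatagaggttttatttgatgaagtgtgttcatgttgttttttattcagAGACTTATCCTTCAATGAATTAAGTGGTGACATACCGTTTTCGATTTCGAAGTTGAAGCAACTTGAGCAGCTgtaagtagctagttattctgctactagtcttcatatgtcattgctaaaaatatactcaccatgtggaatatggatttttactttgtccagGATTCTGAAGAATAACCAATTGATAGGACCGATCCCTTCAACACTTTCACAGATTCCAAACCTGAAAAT

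CLV3 had no region at either temperature. The gene, which encodes the ligand of this receptor group, lies at chr2:11664978-11665797 on the minus strand and is 820 bp long. The nearest region upstream of its start was 3864 bp away at 25 °C, where a 770 bp region lay on AT2G27260, and 2184 bp away at 16 °C, where a 50 bp region of height 187.6 lay on no annotated gene. Downstream, the nearest regions lay in AT2G27230, 12948 bp away at 25 °C and 13498 bp away at 16 °C. CLV3 was thus the only one of the 10 genes without a region. Short genes were seldom marked, since 17.2% of the 4377 genes under 1000 bp carried a region at 25 °C and 14.5% at 16 °C.

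CLV1, the receptor kinase that binds the CLV3 peptide (chr1:28463344-28466971, minus strand, 2 exons), had 5 regions at 25 °C and 1 region at 16 °C. They covered 500 bp (13.8% of the gene) at 25 °C and 100 bp (2.76%) at 16 °C, a change of 11.0 points. No base was shared between the temperatures. The 25 °C regions were 40 to 190 bp wide, with heights from 201.3 to 401.5, and the widest lay at chr1:28464730-28464920. The single 16 °C region, at chr1:28465280-28465380, was 285.3 high and lay between the 25 °C regions. All 6 regions lay within the coding sequence, and the first covered base was 1011 bp from the gene start at 25 °C and 1591 bp at 16 °C. The change was 6.62 points when regions under 100 bp were left out and 5.24 points with regions over 150 bp alone.

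BAM1 had the highest cover of the 10 genes at both temperatures. BAM1 and BAM2 encode receptor kinases closely related to CLV1. BAM1 (chr5:26281642-26285413, plus strand) had 1520 covered bp (40.3%) at 25 °C and 1470 (39.0%) at 16 °C, and 83.4% of the bases covered in either list were covered in both. At 25 °C these bases formed a single region, chr5:26281730-26283250, of height 932.5, the tallest of any region in the 10 genes. At 16 °C there were 3 regions, of which the widest (780 bp, chr5:26282440-26283220) reached a height of 623.0. The gene thus had nearly the same covered length in 1 piece at 25 °C and in 3 pieces at 16 °C, with the 60 bp gap printed above between the first pair.

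BAM2 (chr3:18417568-18421263, plus strand) showed the opposite arrangement, with 5 regions at 25 °C and 3 regions at 16 °C. The regions covered 1120 bp (30.3%) at 25 °C and 1280 bp (34.6%) at 16 °C, a change of −4.33 points. The widest was 560 bp at 25 °C (chr3:18418020-18418580) and 630 bp at 16 °C (chr3:18418440-18419070), and the tallest reached 495.2 at 25 °C and 530.9 at 16 °C. All 4 gaps between the 25 °C regions of BAM2 lay wholly inside 16 °C regions, and both gaps between its 16 °C regions lay inside 25 °C regions. The change in BAM2 was −14.6 points with the stronger 50% of each list by p-value, whereas over the first 1000 bp alone the cover was higher at 25 °C, by 13.0 points. The 5′ part of BAM2 overlaps by 757 bp an antisense long non-coding RNA gene, AT3G49668, and the regions do not tell strands apart. Outside that overlap the cover was 16.2% at 25 °C and 26.0% at 16 °C.

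CLV2 had the largest difference of the 10 genes. It encodes a receptor-like protein with leucine-rich repeats and no kinase domain, and is a gene of 1 exon (chr1:24286742-24289329, plus strand). At 25 °C a single 900 bp region, chr1:24286810-24287710, covered 34.8% of CLV2, and at 16 °C regions of 320 bp (chr1:24287040-24287360) and 50 bp covered 14.3%. The 16 °C regions lay wholly inside the 25 °C region, so that 370 bp were covered in both lists, 530 bp at 25 °C alone and none at 16 °C alone. The bases covered at 25 °C alone lay before, between and after the 16 °C regions, in the 5′ part of the gene: the first 500 bp were covered to 86.2% at 25 °C and 40.2% at 16 °C, and the next 500 bp to 93.8% at 25 °C and 33.8% at 16 °C. Beyond the first 1000 bp no base was covered at either temperature. The tallest region was 536.7 high at 25 °C and 442.6 at 16 °C. In cover, CLV2 stood above 72.6% of all genes at 25 °C and above 61.5% at 16 °C.

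CRN, a membrane protein with a kinase-like domain that works together with CLV2 (chr5:4252842-4255378, minus strand), had 4 regions at each temperature. They covered 750 bp (29.6%) at 25 °C and 590 bp (23.3%) at 16 °C, a change of 6.31 points. The widest was 400 bp at 25 °C (chr5:4254000-4254400) and 210 bp at 16 °C (chr5:4253710-4253920), yet the tallest was lower at 25 °C than at 16 °C (352.8 and 527.3). In CRN, unlike CLV2, the covered stretches were in part different ones, with 280 bp covered in both lists, 470 bp at 25 °C alone and 310 bp at 16 °C alone. The direction of the CRN change depended on the stretch counted: over the first 1000 bp it was −13.8 points. It was below 5 points with the stronger 50% of each list by p-value (2.76) and without the lowest 25 °C regions (4.34). Another protein-coding gene on the opposite strand, AT5G13295, overlaps CRN by 369 bp, of which 321 bp were covered at 25 °C and 0 bp at 16 °C, and outside that overlap the cover of CRN was 19.8% at 25 °C and 27.2% at 16 °C. To which of these genes the 25 °C region belongs cannot be told apart.

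RPK2, a receptor kinase that acts in CLV3 signalling beside CLV1 and CLV2 (chr3:380350-384582, plus strand), was covered over 1270 bp (30.0%) at 25 °C and 1122 bp (26.5%) at 16 °C. The change was 3.50 points (−2.0 points over the first 1000 bp), and 78.2% of the bases covered in either list were covered in both. A 1210 bp region at 25 °C, chr3:380620-381830, lay where a 920 bp region, chr3:380600-381520, and a 150 bp region lay at 16 °C. Their tallest height was 724.8 at 25 °C and 488.4 at 16 °C. A further narrow region lay 1951 bp from the start at 25 °C, with a height of 181.4, and another at the 3′ end of the gene at 16 °C, with a height of 214.7.

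**Figure D1:**
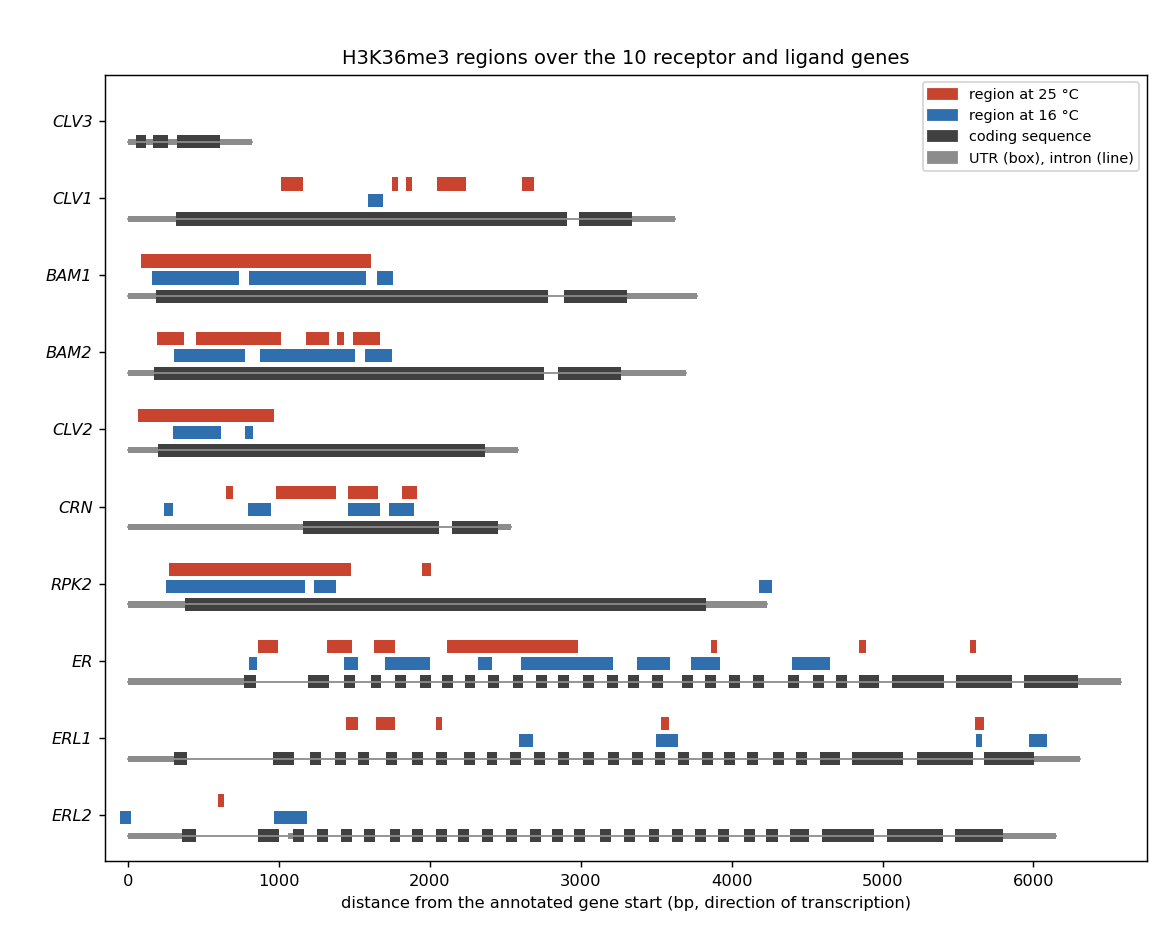
Regions of H3K36me3 over the 10 genes, drawn to scale by distance from the annotated gene start in bp along the direction of transcription, with 25 °C regions in red above 16 °C regions in blue and the gene model (coding sequence dark, UTR grey, introns as lines) under them. CLV3 has no region, BAM1 has 1 region at 25 °C and 3 at 16 °C, and the 900 bp region of CLV2 at 25 °C contains both of its 16 °C regions.

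ER, the receptor kinase for which its family is named, was the only one of the 10 genes with at least 5 points less cover at 25 °C. It has 27 exons and spans 6583 bp (chr2:11208080-11214662, minus strand). ER carried 7 regions at 25 °C and 8 regions at 16 °C, which covered 1430 bp (21.7%) at 25 °C and 1800 bp (27.3%) at 16 °C, a change of −5.62 points. The lists shared 630 bp, while 800 bp were covered at 25 °C alone and 1170 bp at 16 °C alone. The widest region was 870 bp at 25 °C (chr2:11211680-11212550) and 610 bp at 16 °C (chr2:11211450-11212060). The tallest was 436.8 high at 25 °C and 542.7 at 16 °C, where it is the stretch of exons and introns printed above. The change in ER was −4.10 points when regions under 100 bp were left out.

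Within ER the position of the cover differed too. Between 2000 and 3000 bp from the start 87.0% of the bases were covered at 25 °C and 49.0% at 16 °C, whereas from 3000 bp to the end the cover was 3.63% at 25 °C and 24.3% at 16 °C. Over the first 1000 bp the difference had the opposite sign to that of the whole gene, 8.0 points. The first covered base lay 862 bp from the start at 25 °C and 802 bp at 16 °C. Introns of ER were covered to a greater share than its exons, with 30.9% of intron bases and 15.8% of exon bases at 25 °C, and 37.0% of intron bases and 21.1% of exon bases at 16 °C. The exon bases include UTRs, and of the coding bases alone 21.4% were covered at 25 °C and 28.7% at 16 °C. Regions touched 13 of the 27 exons at 25 °C and 16 at 16 °C, and 5 exons were wholly covered at 25 °C and 8 at 16 °C. Of the 27 exons 18 are exactly 72 bp long, the length that encodes 1 leucine-rich repeat, so they are narrower than the median region.

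ERL1 and ERL2, the paralogs of ER with nearly the same exon structure, had little cover at either temperature. ERL1 (chr5:24996129-25002439, plus strand) had 5 regions covering 360 bp (5.70%) at 25 °C and 4 regions covering 390 bp (6.18%) at 16 °C, and the lists shared 90 bp. Its widest regions were chr5:24997770-24997900 at 25 °C and chr5:24999630-24999770 at 16 °C, of 130 and 140 bp, with heights of 255.5 at 25 °C and 256.6 at 16 °C. All other regions of ERL1 were at most 204.7 high, close to the lowest height in the lists.

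ERL2 (chr5:2227439-2233587, minus strand) had 1 region at 25 °C, an intronic stretch of 40 bp at chr5:2232950-2232990 covering 0.65% of the gene, with a height of 186.8. At 16 °C it had 2 regions covering 237 bp (3.85%), and no base was shared. The wider of them, 220 bp at chr5:2232400-2232620, reached 520.8, and the other, of 70 bp and height 259.3, lay across the gene start. In ERL2 the tallest region at 25 °C was 0.359 times as high as that at 16 °C, the lowest such ratio of the 9 marked genes. Without regions under 100 bp ERL2 had no region at 25 °C. The 3 ERECTA family genes each had less cover at 25 °C than at 16 °C, although only ER passed 5 points. In ERL1 the change was −0.48 points. With regions over 150 bp alone, or over the first 1000 bp, ERL1 had no cover at either temperature. Over the first 1000 bp ER had more cover at 25 °C, by 8.0 points.

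**Figure D2:**
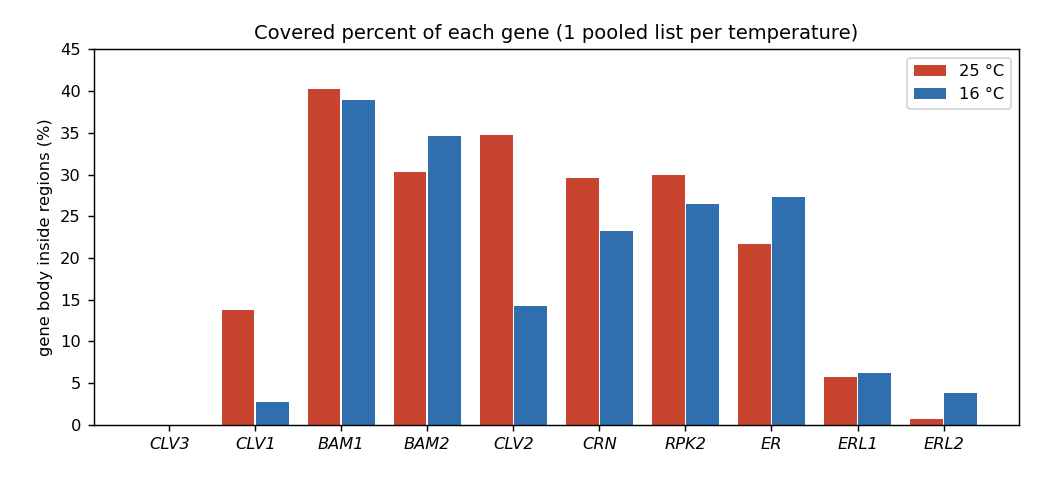
Percent of each gene body inside H3K36me3 regions (vertical axis) for the 10 genes, with 25 °C bars in red to the left of 16 °C bars in blue; each bar is 1 pooled list and has no error bar. BAM1 has the highest bars (40.3% at 25 °C and 39.0% at 16 °C), CLV2 the largest difference and CLV3 none.

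Across the group, the same 9 of 10 genes were marked at both temperatures, beside 59.5% of all nuclear protein-coding genes at 25 °C and 56% at 16 °C. Long genes were more often marked, and for the 10213 genes of 2500 bp or longer these shares were 82% at 25 °C and 79.5% at 16 °C. All 9 marked members exceed 2500 bp. At least 5 points more cover at 25 °C was found for 3 members (CLV1, CLV2 and CRN), a share close to the 35.2% of all genes and below the 48% of genes of 2500 bp or longer. At least 5 points less cover was found for 1 member (ER), beside 8.16% of all genes and 6.24% of long genes. The other 6 differed by less than 5 points, CLV3 among them with no cover. By any amount, cover was higher at 25 °C in 5 members, beside 47.3% of all genes, and lower in 4 members (BAM2, ER, ERL1 and ERL2), beside 17.2% of all genes. Genes with no region in either list cannot differ. Of the 17918 genes marked in at least 1 list, 12994 had higher cover at 25 °C and 4710 lower. The counts are too small to set the group apart from other genes of its length.

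The median cover of the 10 genes was 25.6% at 25 °C and 18.8% at 16 °C, beside 7.37% at 25 °C and 4.22% at 16 °C over all genes. Their median change was 0.66 points. The 17918 genes marked in at least 1 list had a median change of 6.02 points (quartiles −0.65 and 14.5), and genes of 2500 bp or longer 4.50 points. CLV2 lay above the upper quartile of the marked genes, and ER, BAM2 and ERL2 lay below the lower one. The order of cover at 25 °C was BAM1, CLV2, BAM2, RPK2, CRN, ER, CLV1, ERL1, ERL2 and CLV3, of which BAM2, RPK2 and CRN lay within 29.6% to 30.3%. At 16 °C it was BAM1, BAM2, ER, RPK2, CRN, CLV2, ERL1, ERL2, CLV1 and CLV3. With no spread over samples, neighbours in these orders cannot be said to differ.

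**Figure D3:**
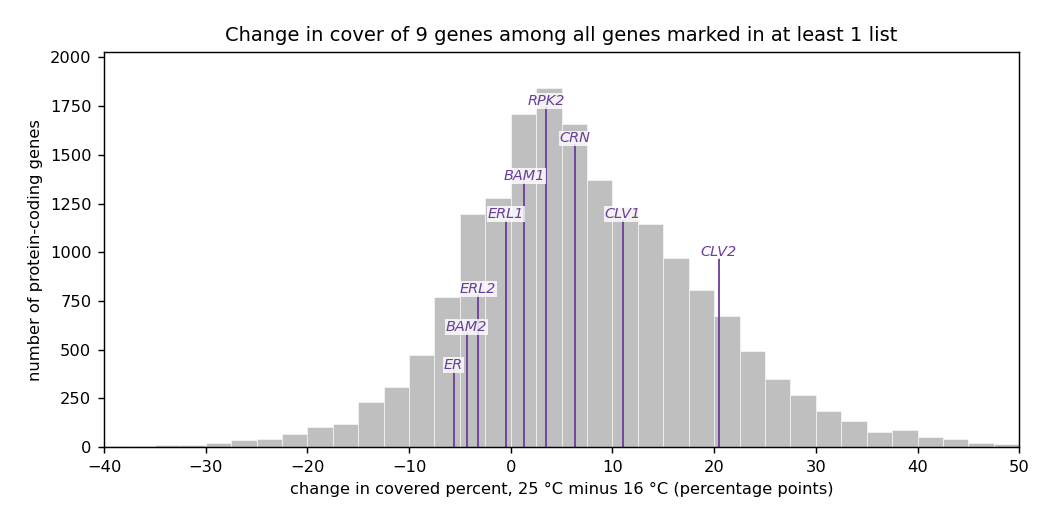
Histogram of the change in covered percent (25 °C minus 16 °C, percentage points, horizontal axis) over the 17918 protein-coding genes marked in at least 1 list, with a purple line for each of the 9 marked members at its own change (line heights only separate the names; −40 to 50 points are shown). CLV2 stands at 20.5 points, ER at −5.62 points and the others between −4.33 and 11.0 points.

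The tallest height differed in the same direction as cover in every marked member except CRN. The tallest region was higher at 25 °C in 4 of the 9 marked members, namely CLV1, CLV2, BAM1 and RPK2, beside 71.8% of the 13775 genes marked in both lists. In these 4 genes the ratio of the tallest height, 25 °C over 16 °C, lay between 1.21 and 1.497. It was 0.996 for ERL1 and 0.933 for BAM2, and lower for ER (0.805), CRN (0.669) and ERL2 (0.359). Over all genes marked in both lists the median ratio was 1.19 (quartiles 0.97 and 1.45), and over the 9 members it was 0.996. CRN was thus the one gene with at least 5 points more cover but a lower tallest region at 25 °C. The lists also differ in the estimated organelle share of signal given above, whose part in these ratios was not tested.

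**Figure D4:**
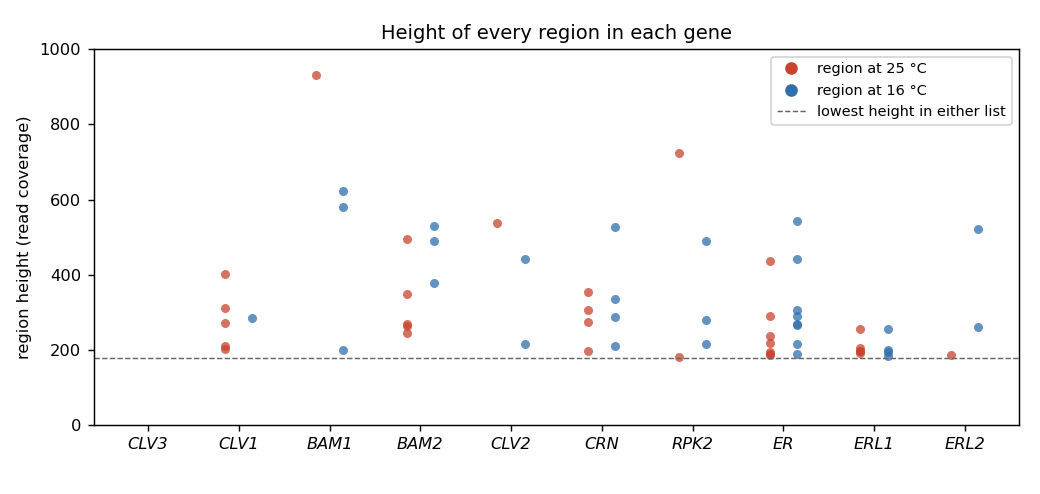
Height of each H3K36me3 region (read coverage, vertical axis) in the 10 genes, 31 regions at 25 °C in red to the left of 30 regions at 16 °C in blue for each gene, with the lowest height of the lists as a broken line. BAM1 holds the tallest region (932.5, 25 °C), and most regions of ERL1 lie close to the broken line.

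Many of the regions were low. At 25 °C 12 of the 31 regions (38.7%) had a height under 1.2 times the lowest in the list, and at 16 °C 8 of the 30 regions (26.7%), beside 13.3% at 25 °C and 15.7% at 16 °C of regions in protein-coding genes. Regions at 25 °C had a median width of 130 bp and those at 16 °C one of 160 bp, whereas all regions in protein-coding genes had medians of 160 bp at 25 °C and of 150 at 16 °C. Of the members' regions 5 in each list were wider than 500 bp. The centre of the region lay in coding sequence for 22 of 31 regions at 25 °C and 18 of 30 at 16 °C, and in an intron for 8 at 25 °C and 6 at 16 °C. All of these intronic regions lay in ER, ERL1 or ERL2, which have 2509 to 2797 intron bases each. The other members have at most 108 bases outside the exons of all their transcripts. Their gene structure thus left almost no room for a centre in an intron. Of the 25 °C regions 16 (51.6%, Wilson 95% interval 34.8% to 68.0%) were overlapped by a 16 °C region, and of the 16 °C regions 18 (60.0%, 42.3% to 75.4%) by a 25 °C region. Over all regions in protein-coding genes these shares were 54.0% at 25 °C and 69.5% at 16 °C, both inside the intervals, which cover counting error only. The intervals treat regions of the same gene as independent, which they may not be, so this is a weak check. The regions without a partner lay mostly in CLV1, ER, ERL1 and ERL2.

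Mean cover between 250 and 1000 bp from the gene start was high for the genes on the CLAVATA side and low for the ERECTA family, but not for every gene. In the first 250 bp the CLAVATA-side mean was 26.6% at 25 °C and 6.87% at 16 °C. All genes of 2500 bp or longer had 29.4% at 25 °C and 24.3% at 16 °C there. Averaged over CLV1, BAM1, BAM2, CLV2, CRN and RPK2, cover was highest between 500 and 750 bp from the gene start at 25 °C (70.0%) and between 250 and 500 bp at 16 °C (63.0%). All genes of 2500 bp or longer had their highest mean cover in the same windows, 53.6% at 25 °C and 44.6% at 16 °C. In the ERECTA family the window of 250 to 500 bp held no cover at either temperature, and no window in the first 1000 bp exceeded 17.3% at 25 °C or 11.1% at 16 °C. The windows end at 2500 bp, well short of the ends of these genes. Up to there their highest windows began 2250 bp from the start at 25 °C (33.3%) and 1750 bp from the start at 16 °C (33.3%). Both were filled by ER alone. In ER, regions also lay beyond 2500 bp at both temperatures, so these windows do not locate a peak. Single genes did not all follow their side. CLV1 had no cover in its first 1000 bp at either temperature, and CRN had none in its first 500 bp at 25 °C. There the first covered base of CRN lay 648 bp from the start, beside 597 bp in ERL2 and 862 bp in ER. The regions that hold these bases in CRN (height 196.5) and ERL2 (186.8) were close to the lowest height in the list. With 6 and 3 genes these profiles are descriptions.

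**Figure D5:**
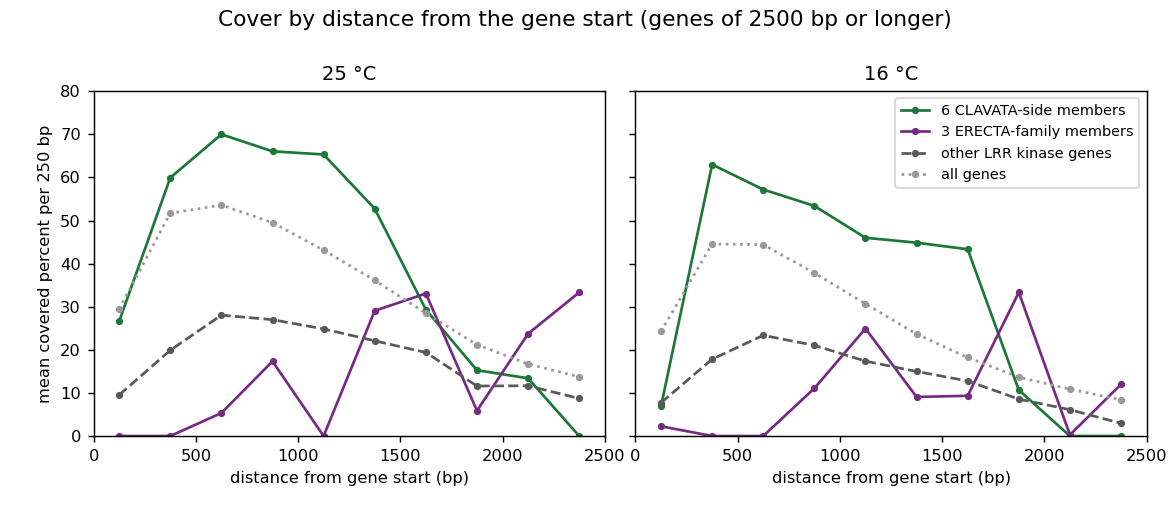
Mean covered percent (vertical axis) in windows of 250 bp by distance from the gene start in bp, at 25 °C (left) and 16 °C (right), for 6 CLAVATA-side members in green, 3 ERECTA-family members in purple, 166 other leucine-rich repeat kinase genes (broken line) and all 10213 genes of 2500 bp or longer (dotted line). The green line peaks at 70.0% at 25 °C and 63.0% at 16 °C, above both gene classes, and the purple line is at 0% between 250 and 500 bp.

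The class most like the members, 179 other genes annotated as leucine-rich repeat kinases, had a similar length (median 3834 bp, and 3734 bp for the members) but less cover. Its median cover was 4.55% at 25 °C and 2.83% at 16 °C, and regions marked 70.9% of its genes at 25 °C and 66.5% at 16 °C. At least 5 points more cover at 25 °C was found for 32.4% of the class and at least 5 points less for 4.47%. BAM1, BAM2, CRN and RPK2 lay above the upper quartile of the class at both temperatures (25.8% at 25 °C and 16.3% at 16 °C), CLV2 at 25 °C alone and ER at 16 °C alone, while CLV1, ERL1, ERL2 and CLV3 lay below it at both. The genes of the class nearest to CLV2 in cover were AT2G27060 (34.9% at 25 °C and 15.5% at 16 °C), PSY1R, a receptor kinase linked to the peptide PSY1 (33.9% at 25 °C and 15.9% at 16 °C), and SOBIR1, a kinase that works with receptor-like proteins in immunity (36.5% at 25 °C and 17.1% at 16 °C). No stretch of 50 bases of any of the 10 genes occurs elsewhere in the genome as an exact match. Mapping that allows mismatches was not examined.

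Ligand genes of both pathways carried almost no H3K36me3 regions, CLV3 included. Of 7 further ligand genes 1 was marked at 25 °C and none at 16 °C, beside 59.5% of all genes at 25 °C and 56% at 16 °C. These genes are short (551 to 2481 bp, 3 of them under 1000 bp), and regions marked 17.2% of all genes under 1000 bp at 25 °C and 14.5% at 16 °C. The exception was EPFL6, with a single region of height 222.4 over 5.24% of the gene at 25 °C. CLE40, a peptide related to CLV3, and the EPF genes had no region, and neither had TMM, a receptor-like protein that acts with the ERECTA family in stomatal patterning.

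Most other genes of the pathway lists were marked. Without the ligand CLE40, regions marked 10 of 10 further CLAVATA pathway genes at 25 °C and 9 at 16 °C, beside 82% at 25 °C and 79.5% at 16 °C of genes of 2500 bp or longer. At least 5 points more cover at 25 °C was found for 6 of them and less for 2. The shares were 35.2% and 8.16% of all genes, and 48% and 6.24% of genes of 2500 bp or longer. HAM2, a transcription factor that acts with WUS, was covered to 57.8% at 25 °C and 40.4% at 16 °C. AGB1, the beta subunit of the heterotrimeric G protein, was covered to 51.7% at 25 °C and 45.6% at 16 °C. KAPP, a phosphatase that binds CLV1, had the largest difference of this list, with 55.9% at 25 °C and 26.9% at 16 °C. WUS itself had 1 region over 5.15% of the gene at 25 °C and none at 16 °C.

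On the ERECTA side, without the 6 ligands, regions marked 11 of 12 further genes at each temperature. The shares of all genes were 59.5% at 25 °C and 56% at 16 °C, and those of genes of 2500 bp or longer 82% and 79.5%. At least 5 points more cover at 25 °C was found for 4 of the 12 and less for 4. The shares were the same 35.2% and 8.16% of all genes, and 48% and 6.24% of genes of 2500 bp or longer. The coreceptor kinases SERK1, SERK2, BAK1 and SERK4 were marked at both temperatures. BAK1 had nearly equal cover (39.8% at 25 °C and 39.4% at 16 °C), and SERK4 had 30.1% at 25 °C and 10.5% at 16 °C. BSK1, a kinase that acts upstream of YDA, had 47.1% at 25 °C and 25.7% at 16 °C. In the MAP kinase cascade that these receptors activate all 5 genes were marked in both lists, and at least 5 points less cover at 25 °C was found for MKK4 (44.1% at 25 °C and 51.1% at 16 °C), MPK3 (a change of −7.38 points) and MPK6 (−5.47 points) and more for MKK5 (7.25 points), while YDA had 31.4% at 25 °C and 31.0% at 16 °C. Median changes, ligands included, were 5.15 points for the 11 CLAVATA genes and 0 points for the 18 ERECTA genes, beside 0 points over all genes and 6.02 points over genes marked in at least 1 list.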

How the data were processed

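H3K36me3 and H3 ChIP-seq reads were mapped by the authors to TAIR10 (Bowtie in the study's methods, Bowtie2 in the submitters' processing notes, no version given). Regions were called by them with DANPOS2 (Dpeak, reads extended to 150 bp). The deposited tables hold 1 pooled list of H3K36me3 regions per temperature, with each region's height and summed coverage (a signal) and the −log10 p-value of the height. The sources used here do not say if the H3 libraries were subtracted. Starts were taken to count from 0. Regions are printed as deposited, in steps of 10 bp, and sequences from 1 base after a deposited start.

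Gene models and sequences came from RefSeq TAIR10.1, whose nuclear chromosomes have the TAIR10 lengths. Cover was computed with Python 3.11.15, pandas 2.3.3, numpy 2.4.6 and scipy 1.17.1, and checked on simulated data. Called means a difference of 5 points or more, with no test. The members and gene lists were chosen with earlier results of these data known. Beside the 10 members, the text names the 2 genes of each pathway list with the highest mean cover and the 2 with the largest change, the 3 leucine-rich repeat kinase genes nearest to the member with the largest change, and the ligand counts. The meristem markers STM, KNAT1, KNAT2, KNAT6, CUC2, CUC3, REV and AS1 were named after their values were seen. So were WUS, TMM, CLE40, EPFL6, the coreceptors and the MAP kinases. Dropped were 6 listed partners (CIK1 to CIK4, EPFL1 and EPFL2) whose symbols the annotation does not give. Alternatives varied the regions kept (width, p-value, height), the stretch counted and the overlap required.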

Additional observations from a re-analysis of the deposited data

How the results depend on the processing

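Each list pools its replicates, so leaving out a replicate could not be done. No paired analysis was possible because the pooled lists do not carry the replicate letters that the temperatures share. Under the alternatives 7 to 9 of the 10 genes were marked at each temperature, 2 to 4 genes had at least 5 points more cover at 25 °C, and the median change lay between 0.0 and 2.12 points. Of 70 recomputed changes of single genes 59 stayed within the counting interval and 9 moved out of it. The 59 include all 7 of CLV3, which had no region and so could not change. The interval treated the 10 bp steps of a gene as independent, so staying within it is a weak check. The other 2, both called changes, took the other sign over the first 1000 bp from the gene start: −13.8 points for CRN and 8.0 points for ER. In the same stretch the changes of BAM2 (13.0 points, counted as moved) and RPK2 (−2.0 points), both under 5 points over the whole gene, took the other sign as well. The number of genes with at least 5 points less cover at 25 °C was 1, but 2 with only regions wider than 150 bp and 2 with the stronger 50% of each list by p-value, BAM2 being added in each. Without regions under 100 bp it was 1 as well, with BAM2 (−5.68 points) in place of ER. The share of the 25 °C regions overlapped by the other list was 72.7% with only regions wider than 150 bp and 19.4% when at least 50% of each region had to be shared. Under that overlap rule the share of the 16 °C regions was 20.0%. The causes were not tested. Narrow regions near the lowest height, as in ERL1, ERL2 and CLV1, limit what can be said of these genes.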
